A study of Mus musculus with 5 samples.

Results

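The 6 genes described here encode the Id proteins Id1, Id2 and Id3 and the E proteins Tcf3, Tcf4 and Tcf12. They were taken by symbol from the 27998 genes of the deposited matrices, and all 6 had UMIs in kept cells of every library. The family was chosen by its measured levels across the gates, known from earlier results of these data, so those levels are given as a description with no test. The cells came from the bone marrow of healthy wild-type C57BL/6 mice and were sorted by flow cytometry into 4 gates, all depleted of lineage-marked cells and all KIT+. Granulocyte/monocyte progenitors (GMP) were SCA1-, CD34+ and CD16/32+, megakaryocyte/erythroid progenitors (MEP) were SCA1-, CD34- and CD16/32-, common myeloid progenitors (CMP) were SCA1-, CD34+ and CD16/32-, and LSK cells, which hold the stem cells, were SCA1+. Each gate was 1 library of the 10x Genomics 3′ kit, which counts molecules as UMIs, and no gene was altered in any of them. The labels do not state the age, sex or number of the mice, or whether animals were pooled.

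E proteins are basic helix-loop-helix transcription factors. They bind DNA at the E-box, CANNTG, as dimers with each other or with tissue-restricted factors such as Tal1 and Lyl1. Id proteins carry the helix-loop-helix but no basic region, so a dimer of an Id protein with an E protein does not bind DNA. In blood formation E proteins are known for lymphoid commitment, Id2 for innate lymphoid and dendritic cells, and Id1 for stem cell maintenance and response to BMP and to cytokines.

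The upstream stretches of an Id gene and an E protein gene are shown because the E-box is the site that E proteins bind, as dimers without an Id protein. They are part of the 250 bases before the RefSeq start (GRCm38.p6), read 5′ to 3′ on the gene's strand. Each begins at the end furthest from the start and stops before the first base in an annotated exon of the gene in GENCODE M21. The bases next to the start are thus left out. Capitals mark each E-box, CANNTG, and each GGCGCC, a motif known from BMP-responsive Id promoters; both motifs read the same on either strand.
Id2, chr12:25096254-25096342, minus strand: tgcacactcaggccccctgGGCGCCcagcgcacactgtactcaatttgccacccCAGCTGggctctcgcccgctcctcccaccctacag
Tcf3, chr10:80433648-80433885, minus strand: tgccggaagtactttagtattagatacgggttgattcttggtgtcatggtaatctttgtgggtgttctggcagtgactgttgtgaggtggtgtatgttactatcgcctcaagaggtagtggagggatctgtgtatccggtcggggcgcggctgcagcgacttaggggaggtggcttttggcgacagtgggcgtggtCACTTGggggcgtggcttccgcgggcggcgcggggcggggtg
The Id2 stretch of 89 bases held 1 E-box, of the form CAGCTG, and 1 GGCGCC. Within windows of that length at the same far end, 33.0% of the 32851 promoters in the table held a CANNTG, 4.23% a CAGCTG and 2.73% a GGCGCC. The stretch lies within an intron of another annotated Id2 transcript. The Tcf3 stretch of 238 bases held 1 E-box and no GGCGCC. In far-end windows of that length 64.7% and 9.0% of promoters held them. A match is a run of letters and was not tested as a binding site.

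The kept cells numbered 8027 in GMP, 6284 in MEP, 3713 in CMP and 10870 in LSK. Total UMIs were 73362645, 80273121, 26919088 and 75167959 in the same order, and the median per cell ran between 5991.5 in LSK and 12578 in MEP. A count of 3 UMIs corresponded to between 0.0374 CPM, counts scaled to a library total of 1000000, in MEP and 0.111 CPM in CMP, the least sequenced library. Of the sorted markers, Ly6a, which encodes SCA1, had 1.10 CPM in GMP, 0.112 in MEP, 1.49 in CMP and 78.2 in LSK, and Fcgr3, which encodes CD16, had 208 CPM in GMP and 13.9 or less in the others. Fcgr2b, which encodes CD32, had 61.5 CPM in GMP, 0.336 in MEP, 33.8 in CMP and 6.31 in LSK, so it separated GMP from CMP, sorted as CD16/32-, by less than 2-fold. The 2 deposited CMP samples held identical values in 3 of 3 files and were counted as 1. Between 36 and 130 cell barcodes were shared by any 2 libraries. With 1 library per gate no difference between gates has a replicate check, and every interval below covers counting error at the 95% level only.

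Among the Id genes, Id3 differed most between gates. Id3, at chr4:136143497-136145755 on the plus strand, had 8 UMIs in GMP (0.109 CPM), 34 in MEP (0.424 CPM), 1479 in CMP (54.9 CPM) and 1618 in LSK (21.5 CPM). It was thus high in CMP and LSK and near the limit of detection in GMP and MEP. Id3 was 2.55-fold higher in CMP than in LSK (log2 1.35, 1.25 to 1.45). The log2 ratio was -8.98 (-10.19 to -7.99) for GMP over CMP and -7.02 (-7.55 to -6.53) for MEP over CMP. In a library total, fewer cells with a gene and fewer molecules per cell cannot be told apart, so the share of cells is given too. An Id3 UMI was present in 0.0997% of GMP cells, 0.509% of MEP cells, 15.4% of CMP cells and 7.25% of LSK cells. Cells with Id3 held on average 2.59 Id3 UMIs in CMP and 2.05 in LSK, and up to 16 in a CMP cell. Immediate early genes, a known sign of stimulation or of handling, moved in part with this order: their summed level was 1290 CPM in GMP, 711 in MEP, 4360 in CMP and 7378 in LSK. Their part in the Id3 levels was not tested.

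Id1, at chr2:152736251-152737410 on the plus strand, had 1343 UMIs in GMP (18.3 CPM), 23 in MEP (0.287 CPM), 825 in CMP (30.6 CPM) and 1639 in LSK (21.8 CPM). MEP was the gate that stood apart, and the other 3 lay within 1.67-fold of each other. The log2 ratio was -6.74 (-7.41 to -6.15) for MEP over CMP, -6.25 (-6.91 to -5.66) for MEP over LSK and 6.00 (5.41 to 6.66) for GMP over MEP. GMP over LSK came to -0.25 (-0.36 to -0.15), a direction that turned to 0.19 with TMM factors and 0.29 with median-of-ratios factors. More GMP cells held an Id1 UMI (13.8%) than LSK cells (6.90%), but an Id1-positive cell held 1.21 Id1 UMIs in GMP and 2.19 in LSK. The GMP cells were also sequenced more deeply, and after each cell was thinned to 2000 UMIs the shares were 3.35% in GMP and 3.23% in LSK. At the depth of the libraries, Id1 UMIs were thus spread over many GMP cells and lay in fewer LSK cells with more UMIs each.

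Id2, at chr12:25093799-25097140 on the minus strand, had 597 UMIs in GMP (8.14 CPM), 360 in MEP (4.48 CPM), 872 in CMP (32.4 CPM) and 1499 in LSK (19.9 CPM). The CMP library was highest, 1.62-fold above LSK (log2 0.70, 0.58 to 0.82). That order rested on a few cells. In CMP, 604 of the 802 Id2 UMIs left after removal of likely doublets, 75.3%, lay in 100 cells of a dendritic-like cluster. Id2 reached 1249 CPM (1151 to 1352) there, against 2.11 to 10.2 CPM in the other CMP clusters of 50 or more cells. An Id2 UMI was found in 96 of these 100 cells, with a median of 6 and up to 19 in a cell.

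The same cluster was small in the other gates, and Id2 was as high in it. It held 16 GMP cells with 1354 CPM of Id2 (1093 to 1658), 16 MEP cells with 1633 CPM (1357 to 1948) and 22 LSK cells with 1275 CPM (1122 to 1443). These few cells carried 17% of Id2 UMIs in GMP, 34.6% in MEP and 18.2% in LSK. A second small cluster, T/NK cell-like and led by Ncr1, Arg1 and Xcl1, held 13 MEP cells with 1195 CPM (935 to 1506) and 19 LSK cells with 808 CPM (638 to 1010). It was too small for the limit of 50 cells and is named after its values were seen. The T/NK cell-like name rests on its cells of all gates together. The 19 LSK cells had Nkg7 at 1039 CPM, Lck at 378 and Ncr1 at 283. In the 13 MEP cells Nkg7 had 1262 CPM and Lck 183, but Ncr1 had 5 UMIs, Klrb1c 1, and Cd3e, Cd3d and Cd3g none. Cd74, of the dendritic list, had 946 CPM in these MEP cells, so the name is less sure there. The dendritic-like name rests on MHC class II genes and Batf3: in the 100 CMP cells Cd74 had 10466 CPM, H2-Aa 5174 CPM and Batf3 273 CPM, while the plasmacytoid marker Siglech had 1 UMI and all 4 of Cd3e, Cd3d, Cd3g and Lck had none. Over whole libraries the summed dendritic list stood at 200.05 CPM in GMP, 188 in MEP, 725 in CMP and 925 in LSK, with 11, 11, 12 and 12 of its 12 genes detected.

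Without the 2 small clusters, Id2 was 6.78 CPM in GMP (6.17 to 7.43), 2.15 in MEP (1.83 to 2.51), 7.79 in CMP (6.74 to 8.97) and 15.7 in LSK (14.7 to 16.7). LSK was then highest, and the log2 ratio of CMP over LSK turned to -1.01 (-1.24 to -0.79), against 0.61 (0.48 to 0.74) over all clusters. GMP over CMP came to -0.20 (-0.45 to 0.05), against -1.94 over all clusters. This left out 16 GMP, 29 MEP, 101 CMP and 41 LSK cells and was chosen after the Id2 values by cluster were seen. For the other 5 genes the same step changed no direction, and Id3 for CMP over LSK came to 1.32, against 1.37 over all clusters.

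**Figure D1:**
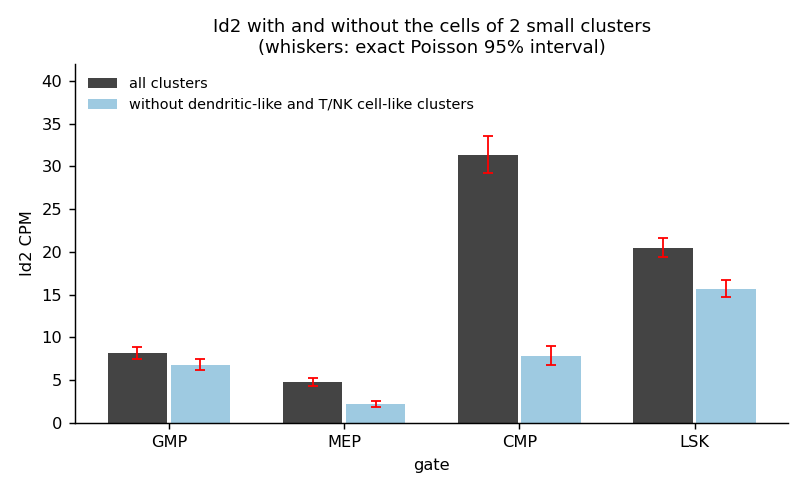
Id2 level in CPM (y axis) in each gate (x axis), over all clusters and without the dendritic-like and T/NK cell-like clusters, with likely doublets removed; whiskers are exact Poisson 95% intervals. The CMP bar drops to 7.79 CPM without them and the LSK bar, at 15.7 CPM, becomes the highest.

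Id4, the fourth Id gene, had 0 UMIs in GMP, 1 in MEP, 7 in CMP and 2 in LSK, so it was close to the limit of detection in all 4. The floor of 3 UMIs corresponds to 0.0409 CPM in GMP, and the exact upper limit of a count of 0 is 0.0503 CPM.

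Of the E protein genes, Tcf4 differed most between gates, and LSK and CMP were each more than 2-fold above GMP and MEP. Tcf4, at chr18:69343356-69689079 on the plus strand, had 1818 UMIs in GMP (24.8 CPM), 2410 in MEP (30.02 CPM), 1828 in CMP (67.9 CPM) and 9204 in LSK (122 CPM). The levels fell in the order LSK, CMP, MEP and GMP, with no overlap of counting intervals. The log2 ratio was -2.30 (-2.38 to -2.23) for GMP over LSK, -2.03 (-2.09 to -1.96) for MEP over LSK, -1.45 (-1.55 to -1.36) for GMP over CMP and -1.18 (-1.27 to -1.09) for MEP over CMP. CMP over LSK, at -0.85 (-0.92 to -0.78), was under 2-fold. TMM and median-of-ratios factors narrowed that log2 ratio by 0.31 and 0.38. After thinning to 2000 UMIs, a Tcf4 UMI was found in 4.50% of GMP cells, 5.89% of MEP cells, 13.1% of CMP cells and 22.1% of LSK cells, in the same order as the totals. A small RNA gene, Gm24845, lies within Tcf4 on the same strand.

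Tcf3, at chr10:80409514-80433647 on the minus strand, had 3558 UMIs in GMP (48.5 CPM), 9417 in MEP (117 CPM), 1882 in CMP (69.9 CPM) and 5209 in LSK (69.3 CPM). MEP was highest and GMP lowest, while CMP and LSK overlapped in their counting intervals (66.8 to 73.1 and 67.4 to 71.2 CPM). Tcf3 was 2.42-fold lower in GMP than in MEP (log2 -1.27, -1.33 to -1.22). MEP over CMP came to 0.75 (0.68 to 0.82) and MEP over LSK to 0.76 (0.71 to 0.81), both under 2-fold. With TMM or median-of-ratios factors MEP over LSK passed 2-fold. GMP over LSK was -0.51 and turned to 0.02 with median-of-ratios factors. Thinned to 2000 UMIs, a Tcf3 UMI was present in 9.99% of GMP cells, 20.4% of MEP cells, 14.7% of CMP cells and 12.5% of LSK cells.

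Tcf12, at chr9:71842688-72111871 on the minus strand, varied least. It had 1503 UMIs in GMP (20.5 CPM), 2492 in MEP (31.0 CPM), 759 in CMP (28.2 CPM) and 2843 in LSK (37.8 CPM). LSK was highest and GMP lowest, with MEP and CMP overlapping (29.8 to 32.3 and 26.2 to 30.3 CPM). The widest ratio, GMP over LSK, was log2 -0.88 (-0.98 to -0.79), under 2-fold. MEP over LSK, at -0.28, turned to 0.15 with TMM factors and 0.23 with median-of-ratios factors. In the annotation 7 genes, mostly unnamed models, overlap Tcf12 on its strand, and splice forms of the E protein genes, 14 annotated transcripts for Tcf3, 62 for Tcf4 and 21 for Tcf12, cannot be told apart in counts per gene.

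**Figure D2:**
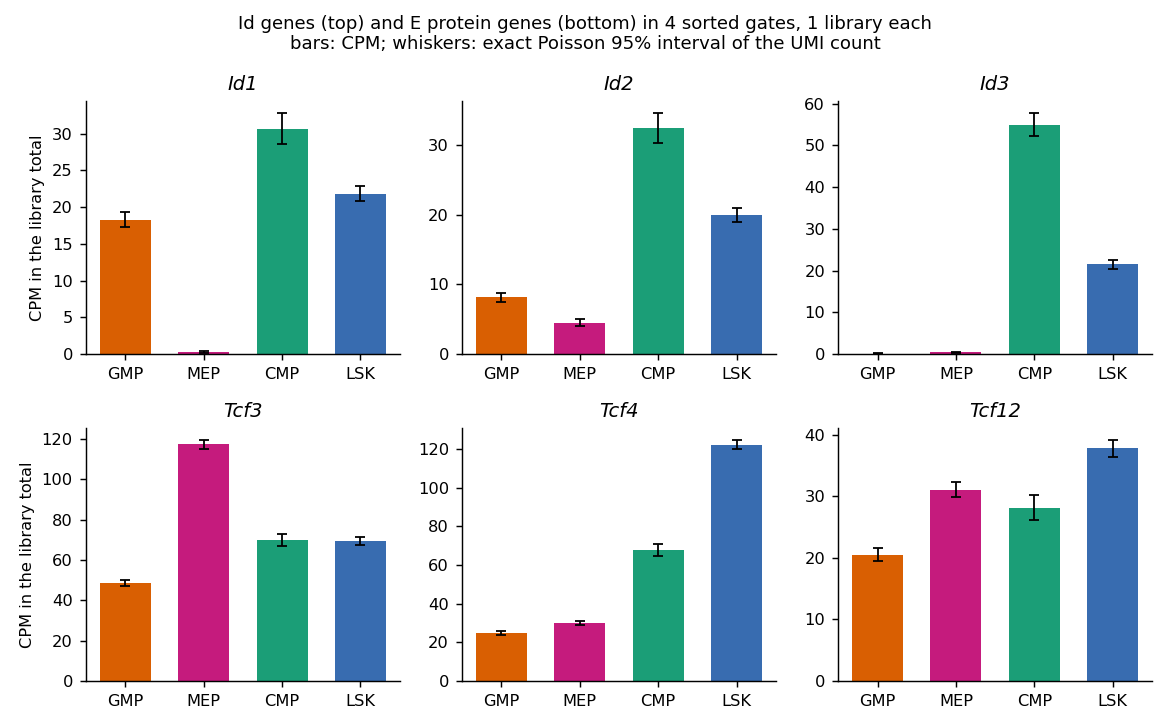
Level in CPM (y axis) of the 3 Id genes (top row) and the 3 E protein genes (bottom row) in the GMP, MEP, CMP and LSK libraries (x axis); whiskers are exact Poisson 95% intervals and each panel has its own scale. Id3 has 0.109 CPM in GMP and 54.9 CPM in CMP, Tcf3 is highest in MEP at 117 CPM and Tcf4 in LSK at 122 CPM.

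Across all genes, a gene was counted as higher in a gate where it had 50 CPM or more there and a ratio of 2 or more. For CMP over LSK, 2.72% of the 3056 genes with 50 CPM in either were higher in CMP, among them Id3 as the only member, and 6.12% were higher in LSK, none of them a member. For GMP over CMP, 2.92% of 2804 genes were higher in GMP, with no member, and 4.03% in CMP, with Id3 and Tcf4. For MEP over CMP the shares of 3104 genes were 10.5% higher in MEP, with no member, and 11.3% higher in CMP, again with Id3 and Tcf4. For GMP over LSK, of 3149 genes 7.49% were higher in GMP, with no member, and 13.3% in LSK, with Tcf4. For MEP over LSK, of 3350 genes 13.5% were higher in MEP, with no member, and 16.4% in LSK, with Tcf4. For GMP over MEP, 12.2% of 3066 genes were higher in GMP, with no member, and 12.1% in MEP, with Tcf3. These comparisons share libraries. The 6 genes were chosen with earlier results of these data known, so the counts describe them and nothing is read from the shares. Id1, Id2 and Tcf12 never reached 50 CPM in a library total and so could not be counted. Id3 was under 50 CPM in both gates for GMP over LSK, MEP over LSK and GMP over MEP. It could not be counted there, although its log2 ratio for GMP over LSK was -7.62. Tcf4 could not be counted for GMP over MEP.

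The scaling bears on these shares. TMM or median-of-ratios factors moved all log2 ratios by 0.31 or 0.38 for CMP over LSK, 0.45 or 0.54 for GMP over LSK and 0.44 or 0.52 for MEP over LSK, and by 0.16 or less in the other 3. Of the genes past the rule, the share higher in the first-named gate was 30.7% for CMP over LSK by total counts, 74.7% with TMM and 79.7% with median-of-ratios factors. For GMP over LSK it was 36%, 75.9% and 82.0%, and for MEP over LSK 45.2%, 76.1% and 79.8%. For GMP over CMP it was 42.1%, 53.9% and 56.5%, and for MEP over CMP 48.2%, 58.0% and 59.5%. No member listed above lost its call under either scaling.

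To see which cells held the members, cells of the 4 libraries were clustered together with the 6 genes left out of the variable genes, which gave 20 clusters and 20 units of a cluster within a gate with 50 or more cells. Clusters were named only from marker lists. Of the 3 Id genes, Id1 was highest in 2 unnamed CMP clusters, with 34.8 CPM (31.6 to 38.2) in the 1733 cells of cluster 6, led by Cxcl2, Ccl4 and Ccl3, and 37.3 CPM (33.2 to 41.8) in the 853 cells of cluster 12, led by Nfkbia, Cdkn1a and Gmfg. It had 6.86 CPM in the basophil/mast-like and 6.34 in the megakaryocyte-like CMP cells. In GMP it ran between 9.18 CPM in granulocyte-monocyte progenitor-like cluster 11 and 26.8 in monocyte-like cluster 3 among clusters of more than 500 cells. In MEP it was 0.0834 to 0.438 CPM in the erythroid-like clusters 5, 10 and 13 and the unnamed cluster 8, but 6.75 CPM (2.48 to 14.7, 6 UMIs) in the megakaryocyte-like cells. The low Id1 level of MEP was thus a feature of its erythroid-like and unnamed cells, and the few megakaryocyte-like cells of MEP and CMP had like values.

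Id3 was highest in the 100 dendritic-like CMP cells, at 172 CPM (137 to 213), with an Id3 UMI in 39.0% of them. It was not high in every dendritic-like cell: the 16 GMP and the 16 MEP cells of that cluster held no Id3 UMI, and the 22 LSK cells had 56.1 CPM. Elsewhere in CMP it had 74.8 CPM (68.9 to 81.0) in cluster 12, 50.4 in cluster 6, 35.6 in the basophil/mast-like and 9.50 in the megakaryocyte-like cells. In LSK it ran between 8.17 CPM (6.70 to 9.86) in cluster 1 and 33.3 CPM (30.6 to 36.2) in cluster 0, both HSC/multipotent-like. The summed immediate early level was 11333 CPM in LSK cluster 0 and 5814 CPM in LSK cluster 1, so it differed with Id3 there. In CMP it was highest, at 10096 CPM, in the basophil/mast-like cells, where Id3 was lower than in clusters 6 and 12. Of the GMP units, cluster 3 had the most Id3, 0.132 CPM (3 UMIs). GMP cluster 16, led by Prss34, Prg2 and Epx, had no Id3 UMI and an immediate early sum of 4798 CPM.

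Of the E protein genes, Tcf3 was high in the large MEP clusters. It was highest, at 139 CPM (132 to 146), in the MEP cluster 13 led by the globin genes Hba-a1 and Hbb-bs, and had 122 and 107 CPM in the erythroid-like clusters 5 and 10. The 1575 cells of the unnamed MEP cluster 8 had 108 CPM (102 to 114), so the high level was not limited to erythroid-like cells. The megakaryocyte-like MEP cells had 59.6 CPM (44.7 to 78.0), within the counting interval of the 71.8 CPM in the megakaryocyte-like CMP cells. GMP units ran between 45.5 and 62.9 CPM, CMP units between 66.6 and 77.2 and LSK units between 59.2 and 77.0. In LSK the lymphoid-primed-like clusters 2 and 7 had 77.0 and 76.3 CPM and the HSC/multipotent-like clusters 0 and 1 had 59.2 and 63.5.

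Tcf4 was above 100 CPM in all 4 LSK units, between 104 (98.6 to 109.7) in cluster 1 and 133 (127 to 138) in cluster 0, and in no unit of another gate. At a finer clustering it reached 205 CPM (195 to 215) in 1245 LSK cells led by Wfdc18, Wfdc17, Arpp21 and Dntt. In CMP it ran between 49.6 CPM in megakaryocyte-like and 74.9 CPM in cluster 12. Tcf4 is known for plasmacytoid dendritic cells, but the dendritic-like CMP cells, at 72.3 CPM, lay within the range of the other CMP units, and only 1 CMP and 1 LSK cell held 2 or more UMIs of Siglech. These 2 cells held 3 Tcf4 UMIs in CMP and 5 in LSK. In LSK, cells with a UMI of Dntt, a lymphoid enzyme gene, had a Tcf4 UMI in 27.8% of cases (25.8% to 29.9%), against 20.8% (19.9% to 21.7%) of cells without one. Tcf12 was highest in LSK cluster 1, at 44.3 CPM (40.7 to 48.0), and lowest in monocyte-like GMP cluster 4, at 18.9 CPM. The Dntt strata were chosen after values were seen.

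**Figure D3:**
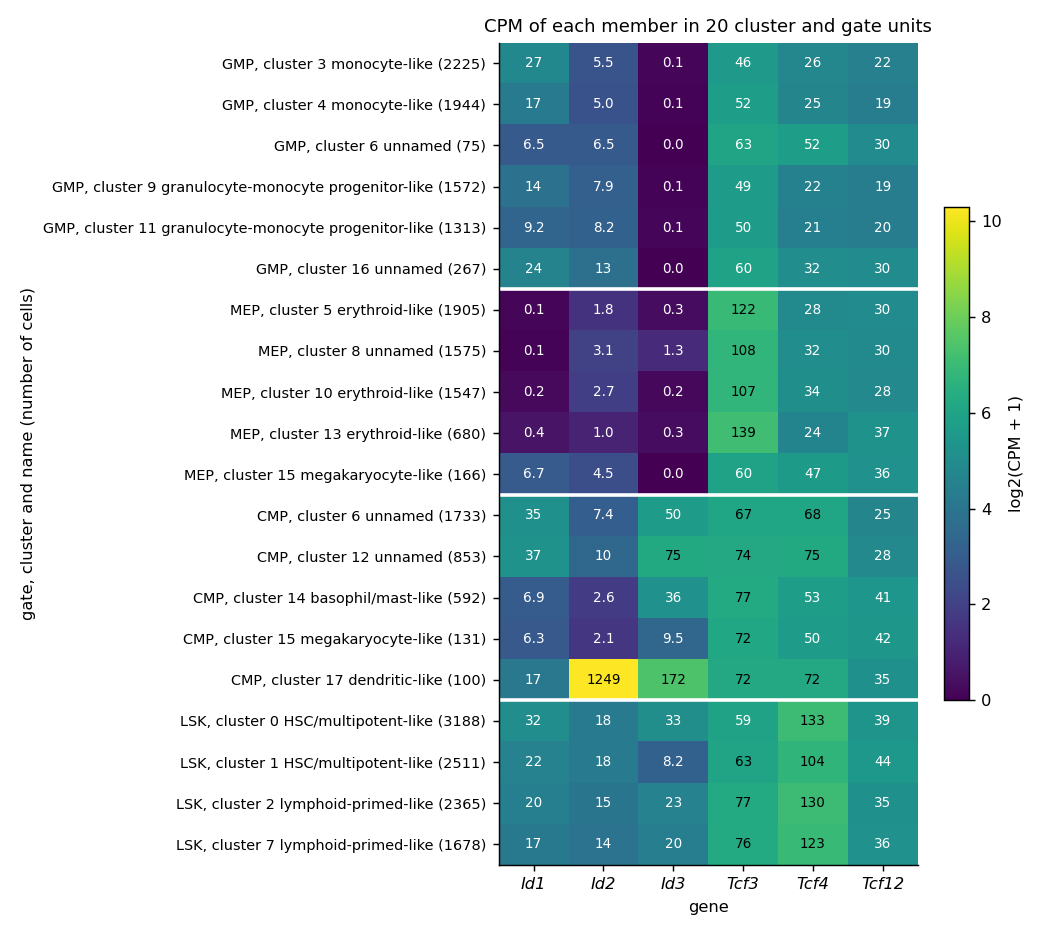
CPM (printed in each box, colour on a log2(CPM + 1) scale) of each member (columns) in each cluster within a gate with 50 or more cells (rows, number of cells in brackets). The box of Id2 in the 100 dendritic-like CMP cells holds 1249 CPM, Id3 is near 0 in all GMP and most MEP rows, and the 4 LSK rows have the highest Tcf4.

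The balance of the 2 families differed between gates. The Id genes together had 28.3 UMIs per 100 UMIs of the E protein genes in GMP (26.9 to 29.8), 2.91 in MEP (2.64 to 3.21), 71.1 in CMP (67.9 to 74.4) and 27.6 in LSK (26.7 to 28.5). GMP and LSK overlapped, MEP was lowest and CMP highest. UMIs of different genes may be captured unequally, so the figure is compared only between gates. The make-up of the Id UMIs differed between gates: Id1 made up 68.9% of Id UMIs in GMP, Id2 86.3% in MEP and Id3 46.6% in CMP, while in LSK the 3 were near even, at 34.5%, 31.5% and 34.02%. Of the E protein UMIs, Tcf3 made up 51.7% in GMP, 65.8% in MEP, 42.1% in CMP and 30.2% in LSK, and Tcf4 26.4%, 16.8%, 40.9% and 53.3%. Tcf12 stayed between 16.5% in LSK and 21.8% in GMP.

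The small clusters rich in Id2 weighed on this balance. With likely doublets and the dendritic-like and T/NK cell-like clusters left out, the Id genes had 27.1 UMIs per 100 E protein UMIs in GMP (25.6 to 28.5), 1.61 in MEP (1.40 to 1.84), 55.8 in CMP (53.0 to 58.8) and 25.9 in LSK (24.98 to 26.8). With likely doublets removed and those clusters kept, the values were 28.6, 3.07, 71.1 and 28.0 in the same order. The order of MEP lowest and CMP highest was the same in both. Id2 then made up 74.8% of the 214 Id UMIs in MEP, and 8.45% in CMP against 26.6% with the clusters kept. This step was chosen after values were seen.

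The balance differed between clusters of a gate as well. In GMP it ran between 8.96 (3.17 to 20.5) in the 75 cells of cluster 6 and 34.7 in cluster 3. In MEP it was 0.834 in the globin-expressing cluster 13 (0.501 to 1.30), 1.22 and 1.8 in the other erythroid-like clusters, 2.66 in the unnamed cluster 8 and 7.87 in the megakaryocyte-like cells (3.69 to 14.96). In CMP it was 799 in the dendritic-like cells (638 to 1010), 69.3 in cluster 12, 58.2 in cluster 6, 26.3 in the basophil/mast-like and 11.0 in the megakaryocyte-like cells (6.23 to 18.1). The megakaryocyte-like cells of MEP and CMP overlapped in their intervals. The LSK units lay between 21.7 in cluster 7 and 35.8 in cluster 0.

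**Figure D4:**
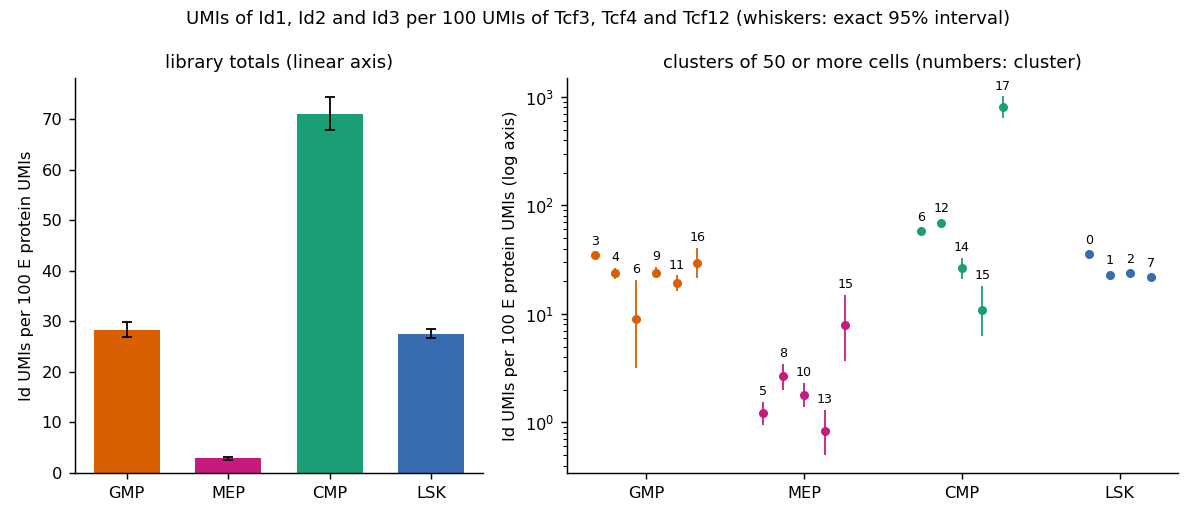
UMIs of Id1, Id2 and Id3 per 100 UMIs of Tcf3, Tcf4 and Tcf12 in the library totals (left, linear axis) and in clusters of 50 or more cells (right, log axis, labelled by cluster number), by gate; whiskers are exact 95% intervals. MEP has 2.91 and CMP 71.1 per 100 in the totals, and the dendritic-like cluster 17 in CMP stands at 799.

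In single cells thinned to 2000 UMIs, with likely doublets removed, an Id gene was found in 4.90% of GMP cells, 1.02% of MEP cells, 13.9% of CMP cells and 8.61% of LSK cells. An E protein gene was found in 17.7%, 29.6%, 29.9% and 37.0% in the same order. Cells with an Id gene and an E protein gene made up 0.772% in GMP, 0.218% in MEP, 4.15% in CMP and 3.15% in LSK. Most cells with an Id UMI had no E protein UMI at this depth, 310 of 368 in GMP and 542 of 855 in LSK, which at such depth does not show that the gene was off. For scale, genes of other lineages were also counted in the thinned cells, here with doublets kept. Elane, a granule gene, had a UMI in 2 MEP cells, 0.0318% (0.00385% to 0.115%). In GMP, Dntt had one in 0.0249% of cells (0.00302% to 0.0900%) and Car1, an erythroid gene, in 0.112% (0.0513% to 0.213%). The thinned share of Id3 in GMP was 0.0249% (0.00302% to 0.0900%). In MEP, Id1 stood at 0.111% (0.0448% to 0.229%) and Id3 at 0.127% (0.0550% to 0.251%), above Elane with overlapping intervals. Whether these Id UMIs came from free RNA was not tested. At the depth of the libraries these UMIs were not spread evenly in MEP: the megakaryocyte-like cells, 2.78% of MEP cells, held 6 of the Id1 UMIs (26.1%), and cluster 8, 26.4% of cells, held 16 of the Id3 UMIs (51.6%). Id3 had 1.34 CPM (0.763 to 2.17) in cluster 8 and between 0.150 and 0.267 CPM in the erythroid-like clusters.

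In CMP and LSK, cells with Id1 held Id3 more often than cells without. In CMP an Id3 UMI was present in 23.3% (16.9% to 30.6%) of the 159 cells with Id1 and in 6.87% (6.04% to 7.77%) of those without. In LSK the shares were 23.4% (18.9% to 28.4%) of the 329 cells with Id1 and 2.55% (2.25% to 2.89%) of those without. Id3 was found in 17.9% (11.8% to 25.5%) of the 134 CMP cells with Id2 and 7.19% (6.35% to 8.11%) of those without. Without the dendritic-like and T/NK cell-like clusters the intervals overlapped, with 8 of 51 cells, 15.7% (7.02% to 28.6%), and 7.08% (6.24% to 7.99%). In LSK, Id3 was found in 12.2% (8.92% to 16.1%) of cells with Id2 and 2.92% (2.59% to 3.28%) of those without, and 12.97% and 2.92% without those clusters. Id2 was found in 10.03% (7.01% to 13.8%) of LSK cells with Id1 and 3.25% (2.91% to 3.63%) of those without. In CMP these Id2 shares overlapped, at 7.55% (3.96% to 12.8%) and 3.58% (2.98% to 4.26%), but not without the small clusters, at 5.77% (2.67% to 10.7%) and 1.27% (0.915% to 1.71%). In GMP, Id2 was found in 3 of 259 cells with Id1, 1.16% (0.240% to 3.35%), and in 1.48% (1.21% to 1.78%) of those without. In GMP, Id3 was found in 0 of 259 cells with Id1 (up to 1.41%) and 2 of 7253 without. Cells of 1 library are not replicates, so no test was made.

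The Id1 and Id3 pairing was seen within clusters too, in an extra step chosen after values were seen. Within CMP cluster 12, 31.2% (18.7% to 46.3%) of cells with Id1 and 8.96% (7.07% to 11.1%) of cells without held Id3, and within CMP cluster 6 the shares were 21.7% and 6.43%. Within the 4 LSK clusters, cells with Id1 held Id3 in 10.2% to 36.7% of cases and cells without in 1.28% to 3.48%, with no overlap of intervals in any of the 4. The pairing was present at high and low immediate early levels: among the third of LSK cells with the most immediate early UMIs the shares were 29.6% and 3.18%, and among the third with the fewest 17.5% and 1.76%. For Id2 and Id3 the intervals overlapped within CMP clusters 12 and 6. There 2 of the 15 and 6 of the 28 cells with Id2 held Id3, 13.3% and 21.4%, against 10.2% and 7.01% of cells without. Within the 4 LSK clusters, cells with Id2 held Id3 in 6.25% to 19.4% of cases and cells without in 1.45% to 4.01%. The intervals overlapped in none of these 4.

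**Figure D5:**
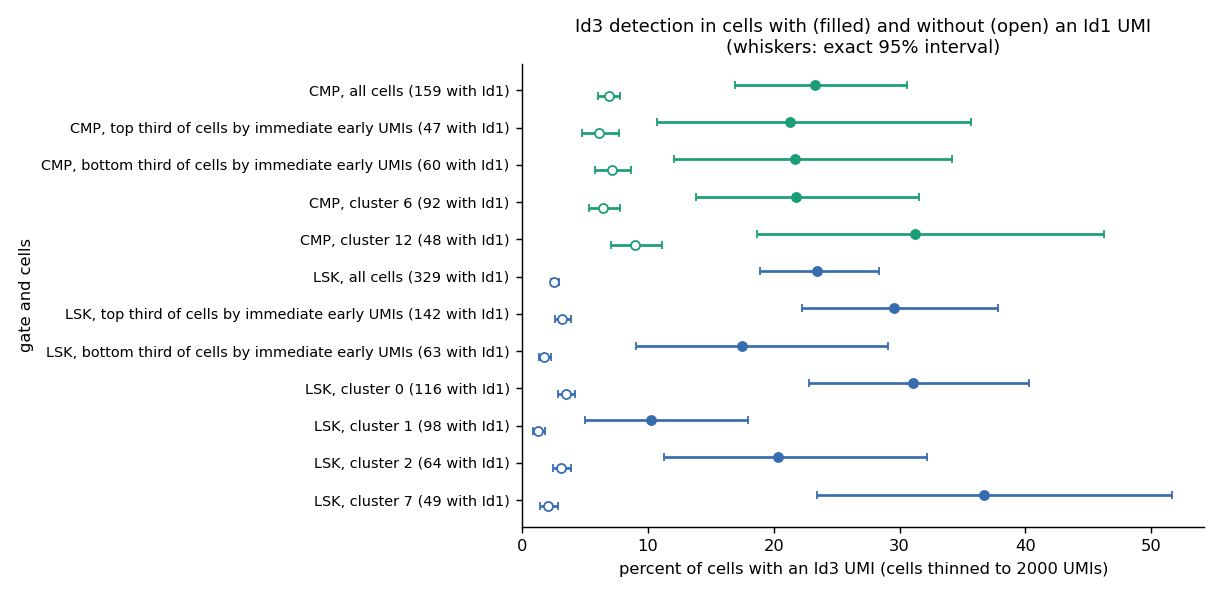
Percent of cells with an Id3 UMI (x axis, cells thinned to 2000 UMIs) among cells with (filled points) and without (open points) an Id1 UMI, for all cells, strata of immediate early UMIs and clusters of CMP and LSK (rows); whiskers are exact 95% intervals. Filled points lie right of open points in every row, at 23.3% and 6.87% over all CMP cells and 23.4% and 2.55% over all LSK cells.

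Among the E protein genes, none of the 12 pairs in a gate had shares whose intervals did not overlap. Of 36 pairs of an Id gene and an E protein gene in a gate, 2 did. In GMP, Tcf4 was found in 0 of 110 cells with Id2 (up to 3.30%) and in 4.61% (4.14% to 5.11%) of those without. In LSK, Tcf12 was found in 11.3% (8.16% to 15.1%) of the 345 cells with Id2 and 7.25% (6.74% to 7.79%) of those without. As examples of the rest, in LSK, Tcf4 was found in 21.3% (19.01% to 23.6%) of cells with Tcf3 and 22.3% (21.4% to 23.2%) of those without, and in 22.2% of cells with Tcf12 and 22.2% of those without. In MEP, Tcf4 was found in 5.20% (4.02% to 6.61%) of cells with Tcf3 and 6.16% (5.49% to 6.88%) of those without. In LSK, Tcf4 was found in 24.5% (19.9% to 29.6%) of cells with Id3 and 22.1% (21.3% to 22.9%) of those without, and Tcf3 in 12.5% of cells with Id1 and 12.5% of those without. In these examples no difference was detectable at this depth.

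Cell cycle and immediate early genes moved with some members within a gate. In CMP, Id3 was found in 9.56% (8.16% to 11.1%) of cells with 2 or more UMIs of G2 and mitosis genes and 6.02% (5.01% to 7.16%) of the others, and Id2 in 5.6% (4.52% to 6.84%) and 2.28% (1.66% to 3.03%). By S phase genes the CMP shares of Id2 ran the other way, with 3.10% (2.47% to 3.84%) of cells with 2 or more UMIs and 5.54% (4.18% to 7.18%) of the others. The dendritic-like CMP cells had the highest G2 and mitosis sum of the CMP units, at 4610 CPM. That sum was 3271 CPM in cluster 12, 2680 in the megakaryocyte-like cells, 568 in cluster 6 and 399 in the basophil/mast-like cells. In LSK, Id1 was found in 4.41% (3.73% to 5.18%) of the third of cells with the most immediate early UMIs and 1.76% (1.35% to 2.24%) of the third with the fewest, and Id3 in 4.35% and 2.04%. In CMP, Id3 showed no such step, with 6.74% (5.36% to 8.36%) and 7.74% (6.40% to 9.26%). Tcf4 in LSK was found in 19.9% (18.4% to 21.5%) of cells with 2 or more UMIs of G2 and mitosis genes and 23.0% (22.0% to 24.0%) of the others.

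The partners of the E proteins had orders of their own. Of 25 tissue-restricted bHLH genes, 1 or 2 reached 50 CPM in each comparison. Tal1, the partner in red cells and stem cells, had 6.68 CPM in GMP, 78.8 in MEP, 18.6 in CMP and 40.1 in LSK. Like Tcf3, Tal1 passed the rule for GMP over MEP as higher in MEP. Unlike Tcf3, at log2 0.75, Tal1 also passed for MEP over CMP as higher in MEP, at 2.08 and under every scaling. Lyl1, its close relative, had 134 CPM in GMP, 87.0 in MEP, 115 in CMP and 240 in LSK, and passed as higher in LSK against CMP and against MEP. The call against CMP, at log2 -1.07 for CMP over LSK, was lost at -0.75 with TMM and -0.69 with median-of-ratios factors, and the call against MEP with median-of-ratios factors. Of 12 genes for LMO and ETO cofactors, which dock on such dimers, 6 reached 50 CPM in CMP or LSK, and Lmo2, Ldb1 and Cbfa2t3 were higher in LSK, where 6.12% of all genes tested were. All 3 calls were lost with either scaling, under which Lmo4 was called higher in CMP. In GMP or LSK 6 reached 50 CPM and 5 were higher in LSK, where 13.3% of all genes tested were. With either scaling Lmo2, Ssbp2 and Cbfa2t3 were still called, and Ldb1 and Crebbp were not. In MEP or LSK 7 reached 50 CPM by total counts, and Lmo2, Lmo4 and Crebbp were higher in LSK, where 16.4% of all genes tested were. These calls were lost with either scaling. Ssbp3 was then called higher in MEP, and with median-of-ratios factors Ldb1 too. Under every scaling Ldb1 and Ssbp3 were higher in MEP than in CMP and GMP, and Cbfa2t3 higher in MEP than in GMP. Lmo4 was higher in CMP and GMP than in MEP, and Ssbp2 higher in CMP than in GMP. By total counts 6 of the list reached 50 CPM in MEP or CMP, 6 in GMP or MEP and 4 in GMP or CMP. For MEP over CMP, 10.5% of all genes tested were higher in MEP and 11.3% in CMP. For GMP over MEP the shares were 12.2% in GMP and 12.1% in MEP, and for GMP over CMP 4.03% were higher in CMP. Lmo2, the adaptor of the Tal1 complex, had 285 CPM in GMP, 368 in MEP, 422 in CMP and 902 in LSK. The list's median log2 ratio was -0.76 for CMP over LSK and -1.31 for GMP over LSK, beside -0.33 and -0.44 over all genes of 1 CPM or more. Of 5 E-box repressors Zeb2 alone reached 50 CPM in any of the 6 comparisons, with 134 CPM in GMP, 67.7 in MEP, 125 in CMP and 57.8 in LSK. It was higher in CMP and in GMP than in LSK.

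Of 20 known E protein target genes, 1 to 3 reached 50 CPM in a comparison. Dntt had 0.0682 CPM in GMP, 0.137 in MEP, 24.4 in CMP and 272 in LSK, with LSK highest and CMP next, as for Tcf4. Bcl11a, a lymphoid and globin regulator, had 27.6 CPM in GMP, 164 in MEP, 59.5 in CMP and 144 in LSK. Cdkn1a, a cell cycle inhibitor gene, had 12.5 CPM in GMP, 3.61 in MEP, 68.1 in CMP and 30.3 in LSK, and was higher in CMP than in each of the other 3. Of the 20 targets, 8 had 1 CPM or more in GMP, 7 in MEP, 9 in CMP and 15 in LSK. A count per gate over all genes is not given, so these numbers have no background. Genes with a mean of 1 CPM or more were also more numerous in comparisons with LSK, at 11365 to 11468, than in the others, at 10582 to 10742.

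Upstream of the Id genes, the BMP and TGF-beta list held 22 genes, of which 1 or 2 reached 50 CPM in a comparison. Smad7, a SMAD-induced inhibitor, had 4.91 CPM in GMP, 11.1 in MEP, 37.7 in CMP and 51.9 in LSK, and was higher in LSK than in GMP and MEP, calls that were lost with TMM or median-of-ratios factors, where it no longer reached 50 CPM. Tgfb1, a ligand gene, had 109 CPM in GMP, 92.2 in MEP, 183 in CMP and 162 in LSK and passed the rule in no comparison. Egr1, which can induce Id genes, had 9.12 CPM in GMP, 17.03 in MEP, 225 in CMP and 163 in LSK, and was higher in CMP and in LSK than in GMP and MEP. The 5 genes for Id protein turnover did not pass the rule in any of the 6 comparisons by total counts. With TMM or median-of-ratios factors Cdc20 was called higher in GMP and in MEP than in LSK, and with median-of-ratios factors Usp1 higher in MEP than in LSK. Usp1, the deubiquitinase that stabilises Id proteins, had 145 CPM in GMP, 170 in MEP, 143 in CMP and 117 in LSK.

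Genes most like each member were ranked by Pearson's r of log2(CPM + 1) over the 20 cluster and gate units, among 4197 genes. These r are descriptions, since units of 1 library share its depth and handling. Id3 was most like Atf3 (0.96), Nr4a1 (0.95), Ing2, Tra2b and Ccnl1, the first 2 being immediate early genes. Id2 was most like Nfkb1 (0.94) and the MHC class II gene H2-Ab1 (0.92), then Cldnd1, Filip1l and Tapbp, with the dendritic-like unit as its highest point. Id1 was most like Ppp1r18 (0.93), Lst1 (0.93), Pstpip1, Vav3 and Fkbp1a. Tcf3 was most like Ahctf1 (0.91), Wrn, Usp7, Tmem238 and Picalm, Tcf4 like Kdm2a (0.94), Smarcd1, Ankrd11, Srebf2 and Aig1, and Tcf12 like Tprgl (0.94), Wac, Nrip1, Phf3 and Whsc1l1. Among the members themselves the strongest r over units were -0.77 between Id1 and Tcf3 and 0.77 between Id3 and Tcf4, and r between Id1 and Id3 was 0.47. Spearman's rho, taken from ranks, was -0.50, 0.66 and 0.31 for these pairs in the same order. By rho the strongest pair was Id1 and Id2, at 0.70, where r was 0.49.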

How the data were processed

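The deposited matrices hold raw UMI counts for each gene and barcode, with no scaling. CASAVA 1.8.2, Cell Ranger 2.0.0 and Seurat 2.3.0 are listed with the mm10 build, per the submitters' processing notes, and the authors' cell filter is not given in these sources. Because the LSK matrix had 737280 barcodes, its cells were taken as the 10883 barcodes with 2110 UMIs or more, 1 above the 10882 stated because of a tie. The CMP matrix held 3738 of 12185 stated cells, and the others were not analysed here. Kept cells had at least 500 genes and no more than 10% mitochondrial UMIs. Counts were summed per library and scaled to CPM. A gene was higher at 50 CPM or more and a ratio of 2 or more, with counts under 3 set to 3. Intervals are exact (Poisson, binomial or Clopper-Pearson) and cover counting error only. Each gate is 1 library, so no p-value was computed. Doublet scores (scanpy 1.11.5) removed 0.8% per 1000 cells before clustering (2000 variable genes, 30 components, 15 neighbours, Leiden resolution 1), co-detection and strata, but not from library totals. Cells were thinned at random to 2000 UMIs for shares. TMM factors came from edgeR 4.0.16. The rule was tested on simulated counts. The genes named are the members, Id4, up to 4 genes of highest CPM per list and the 5 most like each member. Ldb1, Lmo4, Crebbp and the genes marking gates and clusters fall outside that rule. The members and lists were chosen with earlier results of these data known.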

Additional observations from a re-analysis of the deposited data

Results flagged for a closer look

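The LSK matrix also held barcodes with fewer UMIs than the cells, which no comparison above used, and all 6 genes had UMIs there above the limit that a count of 0 allows. In the 426145 barcodes with 1 to 99 UMIs, Id1 had 24.7 CPM, Id2 14.5, Id3 29.8, Tcf3 63.8, Tcf4 95.2 and Tcf12 38.3. In the 79886 barcodes with at least 100 and under 500 UMIs, Id1 had 28.3 CPM, Id2 21.3, Id3 26.5, Tcf3 58.7, Tcf4 141 and Tcf12 38.7. The LSK cells themselves had 21.8 CPM of Id1, 19.9 of Id2, 21.5 of Id3, 69.3 of Tcf3, 122 of Tcf4 and 37.8 of Tcf12. In the 2756 barcodes with 500 to 2109 UMIs, Id1 had 34.02 CPM, Id3 20.5, Tcf3 65.7, Tcf4 134 and Tcf12 47.5. Id2 stood at 63.8 CPM (53.6 to 75.5) in these last barcodes, above the interval of 18.9 to 21.0 CPM in the LSK cells of 2110 or more UMIs.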

How the results depend on the processing

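No paired analysis was possible because each gate is 1 library and no test was made. No filter on cells, removal of likely doublets, and leaving out LSK barcodes under 4000 UMIs moved no count of genes or members by over 1.5 times. With median-of-ratios factors 996 genes passed for GMP over LSK (656 by totals) and 1543 for MEP over LSK (1000), and with these or TMM factors 2 members for MEP over LSK, Tcf3 joining Tcf4. Without ribosomal and mitochondrial genes in the total, 438 genes passed for CMP over LSK (270). With a minimum of 10 CPM, 1123 genes passed for CMP over LSK, 578 for GMP over CMP and 1851 for MEP over CMP. For GMP over LSK 2073 passed, for MEP over LSK 2738 and for GMP over MEP 1909. With no minimum beyond 3 counts the genes were 4464, 2918, 5365, 6537, 7597 and 5383 in that order. At 10 CPM the members passing were 4 for MEP over CMP, 3 for GMP over LSK, 4 for MEP over LSK and 2 for GMP over MEP. With no minimum they were 4, 3, 4 and 3. For GMP over CMP, Id2 joined Id3 and Tcf4 in both settings, and for CMP over LSK Id3 stayed the only member. Id1, Id2, Id3 and Tcf12 could then be counted, and Tcf12 passed in no comparison. The numbers of genes tested at these minimums are not given, so the member counts have no background share. TMM factors moved 22 and median-of-ratios factors 24 of the members' 36 log2 ratios beyond their counting interval; directions that turned are given beside the results. Tcf3 for CMP over LSK, at 0.01, turned slightly negative with LSK barcodes of 4000 UMIs or more (-0.0045) and without ribosomal and mitochondrial genes (-0.03). Without thinning, 42.5% of CMP cells and 40.6% of LSK cells with Id1 held Id3. The highest cluster of Id2 and Id3 was the dendritic-like one at Leiden resolutions of 0.5 and 2 as well, while Id1 was highest in 305 LSK cells (46.9 CPM) at 2. Depth per cell was lowest in LSK, at a median of 5991.5 UMIs, and CMP had the fewest cells, 3713.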
